A study of Mus musculus with 3 samples.

Results

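The distal ends of the 19 mouse autosomes were examined on comparative genomic hybridisation arrays, as the probes that start within 3 Mb of the last probe of each chromosome. They comprised 4352 of the 170305 probes of the array, against 157108 probes on the rest of the autosomes. Each array set DNA of a neurosphere line, a free-floating culture of tumour cells, against mouse liver DNA. All 3 lines came from gliomas that were resistant to inhibition of CSF1R, a growth factor receptor of macrophages and microglia, and were kept for no more than 3 passages. Neurosphere DNA carried the red dye Cy5 and liver DNA the green dye Cy3 on every array, and each liver bore the animal number of its line. Line 1 had an animal number of its own. Lines 2 and 3 shared an animal number and a liver label, so the 3 lines stand for 2 animals. The strain, genotype and age of the animals are not given in the sources used here. No line from a sensitive or untreated tumour was analysed here, so the only comparison is tumour line against liver.

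Mouse autosomes carry the centromere near the opposite tip, so that each has a single long arm and its distal end lies at the telomere of that arm. Telomeres are built of tandem repeats of the hexamer TTAGGG, and the DNA just inside them is often gene-rich and can be rearranged in tumours when chromosome ends break or fuse. A gain or loss of a whole arm tip shows on such arrays as a run of neighbouring probes shifted the same way. Values below are log2 of the line over the liver signal, centred on the median autosomal probe of each array. On that scale an extra copy carried by all cells of a line corresponds to 0.58, and loss of a copy to -1.

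The outermost probes show what was sampled at the tips. The last probes of chromosomes 5, 8, 11, 13, 15 and 16 are printed here because these chromosomes are 6 of the 7 whose ends limma placed away from 0, with CpG dinucleotides in capitals. They are probe sequences from the deposited scanner files, written 5′ to 3′, and their positions are in mm9.
Chromosome 5, chr5:152518971-152519030: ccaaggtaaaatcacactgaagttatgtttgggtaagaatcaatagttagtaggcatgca
Chromosome 8, chr8:131734290-131734335: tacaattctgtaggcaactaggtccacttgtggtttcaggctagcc
Chromosome 11, chr11:121809917-121809961: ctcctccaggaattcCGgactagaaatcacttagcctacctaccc
Chromosome 13, chr13:120283124-120283183: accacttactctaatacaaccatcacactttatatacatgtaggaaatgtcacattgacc
Chromosome 15, chr15:103460255-103460314: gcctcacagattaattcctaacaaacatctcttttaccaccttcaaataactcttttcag
Chromosome 16, chr16:98280245-98280304: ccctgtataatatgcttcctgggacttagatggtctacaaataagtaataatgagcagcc
Of these 6, only the probe of chromosome 11 holds a CpG. The hexamer TTAGGG, on either strand, occurred in 2.87% of end probes and 2.77% of the other autosomal probes, and 0 probes held 2 copies in tandem, so the ends as measured here stop short of the telomeric repeat. Their G and C content matched the arrays' other probes, at 36.8% in both, while a CpG stood in 32.9% of end probes against 36.2% of the rest and in 26.1% of probes within the last 1 Mb. A single probe is a poor measure of its end. The last probe of chromosome 15 lay at -0.21, -0.077 and -0.032 in lines 1, 2 and 3, whereas the mean of its end lay above 0 in all 3.

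The ends were measured as well as other DNA. Neighbouring end probes differed from each other with a spread of 0.383, 0.233 and 0.241 in lines 1, 2 and 3, against 0.384, 0.232 and 0.238 elsewhere on the autosomes, so line 1 was the noisiest array in both places. The liver signal was well above background for 96.4% to 99.2% of end probes, and 0 end probes were saturated. The arrays came from 1 slide and used the dyes in the same orientation, so effects of dye or slide cannot be told apart from a difference between line and liver.

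No distal end approached a gained or lost copy in any line. End means ran from -0.10 to 0.098 in line 1, from -0.13 to 0.15 in line 2 and from -0.065 to 0.12 in line 3, with medians of 0.027, 0.043 and 0.010. The 783 other 3 Mb windows of the autosomes, counted back from the same last probes, had SDs of 0.052, 0.064 and 0.052. The SDs of the 19 ends were 0.048, 0.080 and 0.048, so the ends spread wider than the other windows in line 2. Every end lay within the range of the other windows. That range was -0.17 to 0.14 in line 1, -0.21 to 0.20 in line 2 and -0.22 to 0.17 in line 3. In line 2, 7 of the 783 lay as far from 0 as the farthest end, against 37 in line 1 and 21 in line 3. Averaged over the 19 chromosomes, the ends stood at 0.017, 0.031 and 0.016, a mean of 0.021 ± 0.0084 (SD, n = 3 lines). They exceeded the rest of their chromosomes by 0.016, 0.022 and 0.0074, a mean of 0.015 ± 0.0076 (SD, n = 3). Both means were above 0 in all 3 lines, but an exact 2-sided sign flip test gave p = 0.25 for each, which is the smallest p that 3 arrays allow. The authors' deposited table reduced the same means to 0.0044 and 0.0036.

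Across 3 lines, limma placed 7 of the 19 ends away from 0 at an adjusted p under 0.05, and 9 at an unadjusted p under that value. Those of chromosomes 5, 8, 11, 15 and 16 were above 0 and those of chromosomes 13 and 18 below. The share, 7 of 19, is close to that among all 802 windows, of which 35.5% were called, 17.6% above and 18% below. The calls depended on which arrays were used. Without line 1 limma called 6 ends, with chromosome 17 in and chromosomes 8 and 13 out. Without line 2 it called 0 of 19 ends (6 at an unadjusted p under 0.05) and only 1 of the 802 windows, and with lines 2 and 3 averaged as 1 animal it called 3, those of chromosomes 11, 13 and 18. In the authors' deposited table it called 4, those of chromosomes 5, 12, 15 and 18, so the calls of chromosomes 8, 11, 13 and 16 were lost there.

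Ordered by height, the ends above 0 began with chromosome 15. Its 287 probes, from 100467841 to the last probe at 103460255, averaged 0.036, 0.15 and 0.12 (mean 0.10 ± 0.058, SD, n = 3; limma adjusted p = 0.0038). Line 1 was the low value, and its interval of -0.028 to 0.10 included 0, while those of line 2 (0.11 to 0.19) and line 3 (0.068 to 0.17) did not. Intervals here and below cover only the spread among probes of 1 array, not that between arrays or cultures. The rest of chromosome 15 was itself at 0.061 and 0.063 in lines 2 and 3 and at 0.00055 in line 1. This end holds Acvr1b, an activin receptor gene, and the keratin and Hoxc clusters, and its most distal named probe lies in Ppp1r1a, an inhibitor of protein phosphatase 1.

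Chromosome 11 came next, with 282 probes at 0.098, 0.14 and 0.047 (mean 0.095 ± 0.046, SD, n = 3; limma adjusted p = 0.0037). It stood 3rd of 40 windows of its chromosome in lines 1 and 2 and 15th in line 3, and its 95% interval lay above 0 in all 3 arrays. No other end did so.

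The end of chromosome 5, whose most distal named probe lies in the pheromone receptor gene Vmn2r18, was at 0.038, 0.085 and 0.094 (mean 0.072 ± 0.030, SD, n = 3; limma adjusted p = 0.0087). On chromosome 16, whose last probe carries the cDNA name AK043155, the values were 0.026, 0.087 and 0.095 (mean 0.069 ± 0.038, SD, n = 3; limma adjusted p = 0.012). This end ranked 1st of 32 windows of its chromosome in line 2 and 2nd in line 3. Lines 2 and 3 were close to each other at both ends, and line 1 was lower.

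Chromosome 8 showed the opposite order of lines. Its 201 end probes lay at 0.091, 0.043 and 0.032 (mean 0.055 ± 0.031, SD, n = 3; limma adjusted p = 0.029), with line 1 the highest and the only line whose interval, 0.040 to 0.14, excluded 0. In line 1 it was the highest of the 43 windows of the chromosome.

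Below 0, the end of chromosome 18 was lowest, at -0.056, -0.13 and -0.053 (mean -0.079 ± 0.042, SD, n = 3; limma adjusted p = 0.0076), with its 95% interval below 0 in all 3 arrays. The end of chromosome 13 was at -0.10, -0.073 and -0.015 (mean -0.063 ± 0.044, SD, n = 3; limma adjusted p = 0.021). It was the lowest of 39 windows in line 1 and 26th from the top in line 3, whose interval of -0.058 to 0.028 included 0. The end of chromosome 17 held only 97 probes, the fewest of any end, and lay at 0.0079, -0.11 and -0.065 (limma adjusted p = 0.052), so line 1 stood apart from the other lines.

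The remaining 11 ends did not pass either. On chromosome 2 the values were 0.048, 0.091 and 0.010 (limma adjusted p = 0.055), so line 2 was the high one and the 3 were still on 1 side of 0. Chromosome 9 was at 0.027, 0.066 and 0.0031, and chromosome 10, which ends in pheromone receptor genes of the Vmn2r family, at 0.042, 0.014 and 0.013. The end of chromosome 12 was nearly level at 0.031, 0.019 and 0.035, as was that of chromosome 6 at 0.017, 0.016 and 0.023, and chromosome 19 stood at 0.036, 0.043 and 0.0091. Chromosome 1 lay at 0.00078, 0.040 and 0.020. Chromosome 14, which ends near the fibroblast growth factor gene Fgf14, was below 0 in every line at -0.017, -0.042 and -0.019. The lines did not share a sign on chromosome 3, at 0.041, -0.049 and -0.028.

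Several ends differed between lines more than they departed from 0. That of chromosome 7, which holds the imprinted cluster around Igf2 and Kcnq1, was the highest of the 46 windows of its chromosome in line 2 at 0.099, with an interval of 0.069 to 0.13, and lay at 0.00058 and -0.015 in lines 1 and 3. At the end of chromosome 4 the values were -0.046, 0.10 and 0.0050. At chromosome 7 the interval of line 2 lay above that of line 3 (-0.058 to 0.028), the line that shares its liver label. Each interval rests on probes of 1 array, so this does not separate the lines. No test of a difference between lines was possible with 1 array per line.

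Against the rest of its own chromosome, an end was higher in all 3 arrays on 10 of 19 chromosomes, at 1, 5, 6, 7, 8, 10, 11, 12, 15 and 16. It was lower in all 3 on chromosomes 13 and 18. Among all 802 windows, 31.4% were above the rest of their chromosome in all arrays and 32.4% were below. For the 19 window positions further in, between 3 and 15 of 19 chromosomes were above the rest in all 3 arrays, with a median of 7. The windows 5th and 8th from the end, at 15 and 11, exceeded the 10 of the ends, and the others were lower. Ends of 2 Mb gave 6 chromosomes in place of 10.

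The differences from the rest ran from 0.078 ± 0.037 (SD, n = 3) on chromosome 16 down to -0.086 ± 0.037 on chromosome 18. Chromosome 11 followed the highest at 0.068 ± 0.039, chromosome 5 stood at 0.067 ± 0.022, chromosome 15 at 0.060 ± 0.026 and chromosome 8 at 0.058 ± 0.035. Between them and the lowest ends, chromosome 6 had the closest arrays, at 0.028 ± 0.0017, and chromosome 4 the most scattered, at 0.0085 ± 0.074. Chromosome 17 was at -0.055 ± 0.068 and chromosome 13 at -0.065 ± 0.040. Over all 19, neighbours in this order differed by less than the larger of their SDs.

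Gene number moved with these values. The design of the array names 682 genes in the ends, 11.96 per Mb on average, against 8.50 per Mb in the other windows. Ends ranged from 1.67 genes per Mb on chromosome 17 to 24.3 on chromosomes 11 and 15. In line 2, the 6 ends with the fewest genes, at chromosomes 3, 8, 12, 13, 17 and 18, averaged -0.050, the 7 in the middle averaged 0.047, and the 6 with the most, at chromosomes 2, 4, 9, 10, 11 and 15, averaged 0.094. The same sets gave 0.0021, 0.014 and 0.034 in line 1 and -0.016, 0.029 and 0.033 in line 3. Over the 19 ends, Pearson's r between genes per Mb and end mean was 0.34, 0.80 and 0.48 in lines 1, 2 and 3, with Spearman's rho of 0.34, 0.78 and 0.49. Windows elsewhere followed a like course, with r of 0.45, 0.66 and 0.25 over 783 windows. Leaving out chromosomes 11 and 15, the ends farthest from the median gene number, gave r of 0.16, 0.73 and 0.29. Probe G and C content also moved with the end means, with r of 0.039, 0.75 and 0.35 in lines 1, 2 and 3. Over the 783 windows elsewhere its r was 0.32, 0.63 and 0.20. These points share an array and the base composition of their probes, so the coefficients describe the arrays and carry no p. Which property, if either, lies behind the shifts was not tested.

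Removing a straight-line fit on gene number, made over all windows of each array, changed some ends more than others. Chromosome 15 turned from 0.060 above its rest to -0.0073, the only one of the 7 called ends to change sign. Chromosome 11 dropped from 0.068 to 0.023, and its own call and that of chromosome 15 were lost. Chromosome 12 went from 0.020 to 0.033 and its end was newly called above 0. Limma then called 6 ends and 30.7% of all windows. In the authors' deposited table, chromosome 11 stood 0.013 above its rest. Chromosome 8, which is gene-poor with 4.67 genes per Mb at its end, went from 0.058 to 0.077. Chromosomes 16, 5, 18 and 13 stayed at 0.067, 0.057, -0.068 and -0.053. The gene-rich ends of chromosomes 4 and 10 fell to -0.034 and -0.033. Over all 19 chromosomes the mean excess of the ends came down from 0.015 to 0.0048. With a fit on probe G and C content removed instead, limma called 8 ends and 37.3% of all windows. The called ends were those of chromosomes 5, 8, 10, 11, 15 and 16 above 0 and 13 and 18 below. Against its rest, chromosome 10 then stood at 0.061 and chromosome 7 at -0.012.

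The 3 Mb limit did not mark a step. Averaged over chromosomes, the 1 Mb just inside it was at 0.0060, 0.051 and 0.0094 in lines 1, 2 and 3, and the 1 Mb just outside it was at -0.011, 0.044 and 0.013. Within the ends, the outermost 1 Mb was highest in line 1 at 0.035 and in line 3 at 0.027 but lowest in line 2 at 0.011. From 3 to 20 Mb in, the steps of 1 Mb ranged from -0.033 to 0.046 in line 1, from 0.0038 to 0.065 in line 2 and from 0.0016 to 0.038 in line 3, so the ends lay inside the course of the chromosome arm.

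Single chromosomes changed course near the tip. The last 1 Mb averaged 0.12 on chromosome 15 and 0.11 on chromosome 2, the highest 2, and on chromosome 2 all 3 lines were high at 0.13, 0.13 and 0.077. It was lowest on chromosomes 18, 17, 14 and 10 at -0.093, -0.092, -0.075 and -0.070. On chromosome 10 the last 1 Mb lay at -0.045, -0.098 and -0.067, while its whole 3 Mb end lay above 0 in every line. On chromosome 1, ends of 2 Mb stood 0.13 above the rest of the chromosome and ends of 3 Mb 0.028. With ends of 1 Mb, limma called 11 of 19 ends, where 41.4% of all such windows were called.

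Short stretches within the ends were larger than the ends themselves. Of 426 end blocks of 10 neighbouring probes, 6 were at least 0.2 above 0 in all 3 arrays and 0 were at least 0.2 below, whereas over all 16130 autosomal blocks the shares were 1.17% and 0.719%. No end block reached 0.5 in either direction in any line. The highest covered chr15:100961275-101046525, at 0.48, 0.38 and 0.36, over Acvr1b and Acvrl1, receptors of the activin and bone morphogenetic protein families. The next was chr16:96556718-96645471 at 0.27, 0.28 and 0.33, over Itgb2l and Igsf5. A block at chr6:146669445-146748544 was at 0.40, 0.22 and 0.22 and held the kinase gene Stk38l. A block at chr15:102053585-102137178 was at 0.24, 0.33 and 0.25 and held Espl1, the separase that parts sister chromatids, and the retinoic acid receptor gene Rarg. The block chr1:195905092-196260619, at 0.29, 0.23 and 0.29, bore no gene name, and the block chr2:181012407-181104415, at 0.21, 0.25 and 0.21, held Rtel1, a helicase of telomere maintenance. These 6 were singled out by their values, and blocks were not remade under other settings. The mean of Acvr1b fell from 0.33 to 0.057 under another background correction (normexp) and to 0.13 in the authors' deposited table. In the same order, Igsf5 went from 0.38 to 0.29 and 0.26, and Rtel1 from 0.083 to 0.056 and 0.030.

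Of the 682 gene names in the ends, 277 had at least 3 probes and were tested. Limma called 82 of them (29.6%), 55 above 0 and 27 below, with 129 at an unadjusted p under 0.05. Over all 9502 genes tested on the array, 24.2% were called, 14.2% above and 9.99% below. The median gene stood at 0.033 in the ends and 0.011 over all genes. The split depends on the source of values, since the authors' deposited table gave 34 above and 29 below in the ends. That table also turned the whole array, where 19.6% of genes were called, 817 above and 1045 below. With lines 2 and 3 averaged as 1 animal, limma called 28 genes in the ends, 10.1% of those tested, against 6.88% of all genes. Without line 2 it called 41 (14.8% against 10.9%), without line 3 it called 52 (18.8% against 12.9%) and without line 1 it called 116 (41.9% against 34.0%). The order turned with genes of at least 10 probes, at 22.9% in the ends against 27.0% of all genes. It also turned under another background correction (normexp), at 22.4% against 23.8%.

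Among called genes of at least 3 probes, taking at most 2 per chromosome, the largest shifts above 0 were in genes with few probes. Acvrl1 on chromosome 15, with 2 probes and so not tested, was higher, at 0.98, 0.72 and 0.63. AK050164, a cDNA name on chromosome 8 at 129351904 to 129397721, lay at 0.52, 0.44 and 0.58 (mean 0.51 ± 0.072, SD, n = 3; limma adjusted p = 0.0034, 4 probes). Igsf5, an adhesion protein of epithelial junctions, lay on chromosome 16 at 0.30, 0.38 and 0.45 (mean 0.38 ± 0.078, SD; limma adjusted p = 0.0040, 7 probes). Morn1, at 154467891 to 154514779 on chromosome 4, was at 0.56, 0.38 and 0.24, and its neighbour 2010015L04Rik was at 0.37, 0.33 and 0.27. Hsph1, a heat shock protein gene on chromosome 5, was at 0.49, 0.24 and 0.33. In all of these genes the 3 lines were well above the mean of their whole end. Aspscr1 on chromosome 11 was more scattered, at 0.81, 0.36 and 0.14 (limma adjusted p = 0.022), as was the transcription factor gene Sp1 on chromosome 15, at 0.60, 0.16 and 0.38.

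Below 0, Arhgef16 on chromosome 4 had the lowest mean of the called genes but rested on line 1, at -0.72, -0.11 and -0.24 (limma adjusted p = 0.036). Mrps35, a mitochondrial ribosome protein gene on chromosome 6, was at -0.50, -0.23 and -0.19. Closer together were Cdca7l on chromosome 12, at -0.29, -0.22 and -0.34, and 5830405N20Rik on chromosome 10, at -0.21, -0.37 and -0.23. Prdm15, a zinc finger gene on chromosome 16, lay at -0.25, -0.16 and -0.37, below 0 in every line on an end that was above 0 in every line. AK015323 on chromosome 13 (-0.48, -0.22 and -0.12) and 6330512M04Rik on chromosome 7 (-0.49, -0.094 and -0.19) were lowest in line 1.

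Among 140 genes of the lists described here that have a probe in an end, 73 were tested, 15 were called above 0, 8 below, and 50 did not pass. Over all tested genes, 24.2% were called, 14.2% above and 9.99% below, which is the background for every list count that follows. Of the growth factors and receptors, 8 were tested. Acvr1b (0.39, 0.33 and 0.27; limma adjusted p = 0.0047) and Kl, the co-receptor Klotho on chromosome 5 (0.21, 0.17 and 0.23), were above 0. Under another background correction (normexp) they stood at 0.057 and 0.068 and neither passed (limma adjusted p = 0.41 and 0.32). Erbb3, a receptor of neuregulins on chromosome 10 at 128010082 to 128025610, was at -0.37, -0.23 and -0.19 (limma adjusted p = 0.0099), but its 3 probes turned to 0.016 under another background correction and 0.036 under loess. Fgf10 on chromosome 13 was below 0 at -0.33, -0.19 and -0.053. Neither gene has a value near that of a lost copy.

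The 8 cell cycle and repair genes with a probe in an end had means from 0.025 to 0.57, with a median of 0.088. The lines did not share a sign at Ccnd1, Cdk11b, Depdc1a and Trp73. Pds5b, a cohesin regulator beside Brca2 on chromosome 5, was the only 1 of 6 tested to pass, at 0.21, 0.084 and 0.13 (limma adjusted p = 0.046). Its call was lost under 7 of the other settings and array subsets run. Brca2 itself, which acts in repair of double-strand breaks, was at 0.032, 0.16 and 0.098 (limma adjusted p = 0.13, 4 probes). Its mean was -0.057 under normexp and -0.0045 in the authors' deposited table. Ccnd1, the gene of cyclin D1 near the tip of chromosome 7, had 1 probe, at -0.11, 0.16 and 0.20, so the lines did not share a direction. The highest mean of the list was that of Timeless, a replication fork protein gene on chromosome 10, whose 2 probes were at 0.81, 0.54 and 0.36 and too few for a test. It is named for its value.

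In the imprinted cluster of distal chromosome 7, 1 of 6 tested genes passed. Trpm5, a cation channel gene, was above 0 at 0.14, 0.33 and 0.12 (limma adjusted p = 0.028), though it was at -0.15 under another background correction and -0.045 in the authors' deposited table. Kcnq1, a potassium channel gene that spans much of the cluster with 30 probes, was at 0.12, 0.17 and 0.096 and just missed the threshold (limma adjusted p = 0.0504). Igf2, the growth factor at the head of the cluster, had 1 probe, at -0.13, -0.24 and -0.37.

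Of the immune genes, Stat6, the transcription factor of interleukin 4 signalling on chromosome 10, was at 0.26, 0.30 and 0.27 (mean 0.28 ± 0.022, SD, n = 3; limma adjusted p = 0.0056, 3 probes). Cd34, a sialomucin of blood stem and vessel cells on chromosome 1, was at 0.33, 0.21 and 0.23 (limma adjusted p = 0.0077). The other 5 tested did not pass, among them Cd46 and Cd226, at means of -0.0079 and -0.057. Over the 19 immune genes with a probe in an end, means ran from -0.65 to 0.29, with a median of -0.057. The lowest was that of Ccr2 on chromosome 9, whose 1 probe was at -0.93, -0.55 and -0.47. Xcr1, also with 1 probe on chromosome 9, was at -0.65, -0.47 and -0.32. Both are named for their values and had too few probes for a test. Among transcription factors, Sp1 and Myt1, a zinc finger gene of the nervous system on chromosome 2 (0.13, 0.11 and 0.17), were above 0, and Prdm15 and Sp4 (-0.20, -0.19 and -0.11) were below, out of 8 tested. The calls of Sp1, Myt1, Prdm15 and Sp4 were lost under 2, 4, 1 and 7 of the other settings and array subsets run. Zic2, a neural factor with 1 probe on chromosome 14, was at 0.64, 0.41 and 0.44.

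Of 20 tested genes of ion channels, synapses and adhesion, 15 did not pass. Lamb3 on chromosome 1 (0.33, 0.22 and 0.15), Ntsr1, the neurotensin receptor gene on chromosome 2 (0.16, 0.21 and 0.15), and Slc18a2 on chromosome 19 (0.12, 0.23 and 0.30) were above 0. Nalcn, a sodium leak channel gene with 35 probes on chromosome 14, was at -0.11, -0.15 and -0.12 (limma adjusted p = 0.0498), just inside the threshold, and Lama5 on chromosome 2 was at -0.26, -0.043 and -0.22. Other settings and array subsets lost the calls of Lamb3, Ntsr1, Slc18a2, Nalcn and Lama5 in 0, 5, 6, 7 and 4 cases. Genes with many probes lay on both sides of 0. Negr1, a neuronal adhesion gene with 68 probes on chromosome 3, was at -0.10, -0.12 and -0.14 (limma adjusted p = 0.057), and Dok6, with 48 on chromosome 18, was at -0.050, -0.20 and -0.088 (limma adjusted p = 0.10). Cdh4, with 48 probes on chromosome 2, was at 0.031, 0.049 and -0.088, and Ptprn2, with 80 probes of which 25 lie inside the end of chromosome 12, was at 0.058, 0.041 and -0.012.

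Among chromatin genes, Cbx5, the gene of heterochromatin protein HP1 alpha on chromosome 15, was at 0.34, 0.25 and 0.27 (limma adjusted p = 0.0056), and the other 2 tested did not pass. Of 14 tested genes of metabolism and signalling, Bace2 (0.16, 0.19 and 0.19), Csnk1d (0.43, 0.17 and 0.11) and Gnb1 (0.24, 0.12 and 0.14) were above 0. Their calls were lost under 7, 5 and 8 of the other settings and array subsets run. Foxk2 on chromosome 11 (-0.35, -0.19 and -0.22) and Nnt, the mitochondrial transhydrogenase gene on chromosome 13 (-0.28, -0.18 and -0.21; limma adjusted p = 0.010), were below. Rptor, the mTOR partner raptor, had 32 probes on chromosome 11 at 0.16, 0.058 and -0.038 and did not pass (limma adjusted p = 0.38). Of the 14 keratin names on distal chromosome 15, 1 had enough probes to be tested and did not pass.

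Few of these calls held everywhere. Normexp lost 16 of the 35 calls among the genes named here, and the authors' deposited table lost 17. Of the 35, 11 passed the threshold under each of the other settings and array subsets run: AK050164, Morn1, Igsf5, Hsph1, 2010015L04Rik, Mrps35, 5830405N20Rik, Stat6, Cbx5, Lamb3 and Foxk2.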

How the data were processed

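Scanner files deposited by the authors give spot intensity on mm9, per the file headers processed in Agilent Feature Extraction 10.7.3.1 by background subtraction, detrending and dye normalisation. The authors' deposited value table holds log10 ratios, used here as an alternative; it correlated with the scanner ratios at 0.867, 0.844 and 0.884, and how it was centred is not stated in these sources. Column medians were 0.00044, -0.0015 and -0.0027. Control and outlier spots were left out and spots of the same probe averaged. Log2 of Cy5 over Cy3 was centred on the autosomal median. Means of 3 Mb windows (50 probes or more) and of genes (3 probes or more) were set against 0, 2-sided, by lmFit and eBayes of limma 3.58.1 in R 4.3.3, with Benjamini-Hochberg adjustment over all windows or genes. A called feature has an adjusted p under 0.05. Intervals are 95% intervals over blocks of 10 neighbouring probes within 1 array. They treat the blocks as independent and hold no variation between arrays or cultures. Tables were made in Python 3.11.15 (pandas 2.3.3, numpy 2.4.6, scipy 1.17.1).

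Gene names are those of the array design; of 682 in the ends, 436 matched a RefSeq symbol and 59 a synonym in GRCm38.p6, used for names only. Gene number counts these names, so a gene without a probe is missed. Exon and intron annotation of mm9 was not used here. The rule for named genes gave counts for 9 gene lists with up to 3 tested members each in alphabetical order, 10 genes whatever their value (Cdkn1c and Emx2 had no probe of their own name in an end), up to 8 called genes on either side of 0 with at most 2 per chromosome, and the most distal named probe of each chromosome. Called members beyond these were named after their values were seen. The ends, the lists and the tests were chosen with earlier results of these data known.

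The labels do not say that the lines are separate cultures of separate tumours, so p-values measure the spread between these 3 samples. On simulated data, limma over 802 windows recovered 26 of 100 shifts of 0.05 and 76 of 100 shifts of 0.1, and over 9502 genes 31 of 100 shifts of 0.25 and 81 of 100 shifts of 0.5. The number of arrays limits the precision.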

Additional observations from a re-analysis of the deposited data

How the results depend on the processing

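The mean over the ends was 0.012 under loess, 0.0044 in the authors' deposited table, and 0.0066 or 0.0083 with the gene number fit removed (all names, or names matching RefSeq, a choice made after seeing the data). The mean excess over the rest was 0.0036 in the authors' deposited table and 0.0048 or 0.0066 after the same corrections. The count of called ends, 7, became 4 in the authors' deposited table, 11 with ends of 1 Mb and 3 with lines 2 and 3 averaged, and ran from 0 to 8 with each line left out in turn. The count of called genes, 82, became 27, 51 and 124 with ends of 1, 2 and 5 Mb, which hold fewer or more genes. It became 28 with lines 2 and 3 averaged and ran from 41 to 116 with each line left out. With genes of at least 1 probe it was 161, 23.6% of those tested in the ends against 22.5% of all genes. With at least 10 probes it was 16, and the ends then lay below all genes, at 22.9% against 27.0%. The ends also lay below all genes under normexp, at 22.4% against 23.8%. The count of chromosomes above their rest, 10, became 6 with ends of 2 Mb. With the gene number fit removed, chromosomes 7, 10 and 15 were no longer above their rest in all 3 arrays, and none was added. Called values that reversed were -0.0073 for chromosome 15 with gene number removed, 0.016 (normexp) and 0.036 (loess) for Erbb3, and -0.15 (normexp) and -0.045 (authors' deposited table) for Trpm5. Among ends that were not called, those of chromosomes 2, 3, 4, 6, 7, 9, 10, 12, 17 and 19 changed sign under at least 1 setting, as from 0.024 to -0.071 on chromosome 10 with ends of 1 Mb and from 0.042 to -0.026 on chromosome 2 in the authors' deposited table. The cause of these changes was not tested. Of 81 values of the main results under other settings, 61 stayed close and 20 moved. A change of sign was not scored for these values. Of 285 values of single chromosomes, 238 stayed close. Of 763 values of genes, 650 were scored as unchanged, but this score includes genes that were not called and changed sign. Among those, Nap1l4 went from 0.017 to -0.125 in the authors' deposited table and passed there (limma adjusted p = 0.047). No paired analysis was possible because the lines have no partner group. The number of arrays, 3 from 2 animals, limits what a test can show here.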

Other observations

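At a few end probes, line 1 stood apart from both lines of the shared animal. Both lines of the shared animal differed from line 1 by at least 1.5 in the same direction at 5 of 4352 end probes (0.11%) and at 61 of 157108 probes elsewhere on the autosomes (0.039%). The widest was the only probe named for Hoxc5, a homeobox gene of the cluster on chromosome 15 that patterns the body axis, and it is shown because its liver signal, and not that of the tumour line, set line 1 apart.
Hoxc5, chr15:102845137-102845196: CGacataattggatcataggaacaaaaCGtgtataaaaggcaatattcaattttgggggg
It read -1.18, 0.84 and 1.53 in lines 1, 2 and 3. The processed liver signal was 5686 on the array of line 1 and 1416 and 1297 on the others, whereas the line signals were 2518, 2521 and 3747. The other 4 such probes were named for Plxna2, Slc17a9, BC172936 and Plekhn1, and at Plxna2 the liver signal was 48.7 for line 1 against 132 and 166 for lines 2 and 3, with line signals of 168, 152 and 164. These probes were singled out by their values, and no test was made. Line 1 was the noisiest array, with 52 of the 4352 end probes at least 1 from 0, against 3 and 10 in lines 2 and 3. With 1 array for the animal of line 1, a difference between animals cannot be told apart from noise on that array.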
